A study of Mus musculus with 8 samples.

Results

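Blood vessels and the fat around them handle lipid with a small set of lipases and the proteins that fold, anchor or inhibit them. The 10 genes described here, *Lpl*, *Lipg*, *Gpihbp1*, *Lmf1*, *Angptl4*, *Pnpla2*, *Lipe*, *Mgll*, *Lipa* and *Pla2g7*, were taken by gene symbol from the count tables of mouse aorta and are 10 of the 21859 genes listed there. All 10 passed the filter on low counts, which kept 15077 genes. RNA was sequenced from whole aortas of 4 *ApoE-/-* and 4 wild-type (WT) mice, all male, 40 weeks old, on the C57BL/6 background and fed normal chow, with 1 library per mouse. The *ApoE-/-* mice lacked apolipoprotein E, a ligand through which remnant lipoproteins are cleared, from birth and in every tissue, and the WT mice carried no engineered allele. All mice had been fasted and perfused with saline, and whether the WT mice were littermates was not given in the sources used here.

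Lipoprotein lipase (LPL, from *Lpl*) is folded in the endoplasmic reticulum with the help of LMF1, crosses the capillary endothelium bound to GPIHBP1, and hydrolyses the triglycerides of chylomicrons and very-low-density lipoproteins at the vessel lumen, where ANGPTL4 can inactivate it. Inside cells, the lipases of *Pnpla2*, *Lipe* and *Mgll* act in turn on triglycerides, diglycerides and monoglycerides of the lipid droplet, while lysosomal acid lipase (*Lipa*) hydrolyses cholesteryl esters and triglycerides of lipoproteins taken up by endocytosis. Endothelial lipase (*Lipg*) acts on phospholipids of high-density lipoproteins, and the enzyme of *Pla2g7* cleaves platelet-activating factor and oxidized phospholipids.

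In the plasma-side system, the clearest difference was in *Gpihbp1*, whose level in *ApoE-/-* aortas was 49.6% of that in WT aortas, without overlap between the genotypes, although the main test across all genes did not call it. *Lpl* itself, its inhibitor *Angptl4* and the 3 cytosolic lipases varied from 1.51-fold (*Mgll*) to 3.52-fold (*Pnpla2*) among *ApoE-/-* mice. Their order of mice was nearly that of the markers of adipocytes, and their genotypes overlapped. *Lipa*, *Lmf1* and *Pla2g7* had genotype differences of 0.03 to 0.24 on the log2 scale, in aortas where macrophage markers were higher.

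The libraries held 23240995 to 23940156 counts on genes in *ApoE-/-* mice and 18375898 to 21664598 in WT mice, and the share of listed read pairs that fell on genes was also higher in *ApoE-/-* (32.3% to 35.6%) than in WT libraries (27.9% to 30.2%), without overlap, a difference whose part in the results was not tested. Levels are given as CPM, the counts scaled to library size by the TMM method and expressed per 1e6 counts. *Apoe*, the targeted gene, stood at 14.7 to 36.3 CPM in the *ApoE-/-* aortas and at 536 to 857 CPM in the WT aortas (log2 fold change −4.83, SE 0.37, edgeR adjusted p = 0.0141). Smooth muscle markers, which define the aortic wall, were present in every library, with a sum over 10 genes of 5559 to 22784.5 CPM in *ApoE-/-* and 12318 to 22977 CPM in WT mice. Markers of adipocytes were also present in every library, brown fat genes included, with *Ucp1*, the uncoupling protein of brown fat, at 209 to 1071 CPM in *ApoE-/-* and 596 to 2539.6 CPM in WT mice. *ApoE-/-* mouse 1 stood apart from the others of its genotype, with the lowest smooth muscle score of all 8 libraries (mean log2 CPM of the 10 markers 8.19, against 9.33 to 10.2 in the other 7) and the lowest macrophage score of the *ApoE-/-* mice (4.89, against 5.74 to 6.88), so the results that it decides are also given without it. In whole tissue, fewer cells of a type and less RNA per cell cannot be told apart.

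In GRCm38 with the GENCODE M21 annotation, *Lpl* lies at chr8:68880491-68907448, *Gpihbp1* at chr15:75596628-75599481, *Lmf1* at chr17:25579085-25662826, *Angptl4* at chr17:33773750-33781830, *Pla2g7* at chr17:43568098-43612201, *Mgll* at chr6:88724412-88828360 and *Lipa* at chr19:34492318-34527474. *Lipe* (chr7:25379527-25398710) and *Pnpla2* (chr7:141455198-141460743) share a chromosome with the targeted *Apoe*, at distances of 5.68 and 122 Mb, and whether the strain background kept beside the targeted allele had a part in the values of *Lipe* was not tested. Exons of *Lipe*, *Mgll* and *Pla2g7* overlap those of a gene on the opposite strand over 918, 167 and 319 bases. The library kit keeps strand and the names of the count tables mark the counts as stranded, while the setting itself was not given in the sources used here.

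The sequences before the starts of the 3 cytosolic lipases are shown because the levels of these genes varied together from mouse to mouse. The RefSeq windows used here (GRCm38.p6) held the 250 bases before a start for 6 of the 10 members, in 8 windows. No window of *Lpl*, *Gpihbp1*, *Angptl4* or *Lipg* was used, which does not mean that RefSeq lacks a start for them. Windows were searched on both strands for the palindromic E-box CACGTG, which basic helix-loop-helix factors bind, for the GC box GGGCGG, and for the nuclear receptor half-site AGGTCA alone and as the direct repeat AGGTCANAGGTCA to which PPARs bind with RXR. In the sequences below, capitals mark the E-box and the GC box on either strand. *Mgll* is shown for chr6:88724162-88724411 on the plus strand, inside an exon of the noncoding gene *Gm26588* of the minus strand, *Pnpla2* for chr7:141454938-141455187 on the plus strand, where no exon is annotated, and *Lipe* for 30 bases at chr7:25396125-25396154 on the minus strand, which lie in the untranslated part of the first exon of an annotated *Lipe* transcript.
Lipe: aacagggacgacCACGTGaggGGGCGGagg
Mgll: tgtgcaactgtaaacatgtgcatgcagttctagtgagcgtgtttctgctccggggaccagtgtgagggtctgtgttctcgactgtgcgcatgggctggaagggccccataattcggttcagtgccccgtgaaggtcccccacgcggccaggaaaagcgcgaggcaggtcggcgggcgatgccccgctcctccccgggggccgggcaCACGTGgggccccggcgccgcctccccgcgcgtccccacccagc
Pnpla2: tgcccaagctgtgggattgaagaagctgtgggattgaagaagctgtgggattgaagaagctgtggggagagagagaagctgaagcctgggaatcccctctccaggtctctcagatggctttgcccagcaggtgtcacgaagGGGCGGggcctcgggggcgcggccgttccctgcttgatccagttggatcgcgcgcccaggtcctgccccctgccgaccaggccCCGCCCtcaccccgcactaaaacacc

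*Lipe* and *Mgll* each had 2 windows, from separate RefSeq starts, and CACGTG was found in 1 of each, beginning 155 bases before the start of *Lipe* and 44 bases before that of *Mgll*. It was in neither the *Pnpla2* window nor those of *Lipa*, *Lmf1* and *Pla2g7*. Of all 32817 RefSeq windows of this length, 6.02% held CACGTG and 32.7% held GGGCGG, which was in 5 of the 8 windows, 6 times in the *Lipe* window with CACGTG, 2 times in that of *Pnpla2* and 1 time each in those of *Lmf1*, *Pla2g7* and the *Mgll* window that is not shown. AGGTCA, present in 14.0% of all windows, and AGGTCANAGGTCA, present in 0.0335%, were in no member's window. These matches describe letters in short windows and do not show binding.

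Per length of exonic sequence, the intracellular and extracellular triglyceride lipases were the most abundant members. The length was that of all annotated exons of a gene joined, and the order depends on it. It was 10478 bases for *Lpl*, 13589 for *Lmf1* and 3020 for *Pnpla2*. In CPM not divided by length, mean *Lpl* (1774 CPM in *ApoE-/-* and 2552 CPM in WT mice) was above mean *Pnpla2* (776 and 1002 CPM). Over the 8 mice, the mean level was 294 CPM per kilobase for *Pnpla2*, 206 for *Lpl*, 103 for *Lipe*, 90.3 for *Mgll* and 69.0 for *Angptl4*. Lower levels were found for *Gpihbp1* (35.4 CPM per kilobase), *Lipa* (18.8), *Pla2g7* (16.0), *Lmf1* (2.24) and *Lipg* (0.626). Each of the first 7 overlapped in its range over mice with the next in this order, and gaps without overlap separated *Pla2g7* from *Lmf1* and *Lmf1* from *Lipg*. Within a mouse, on this per-length scale, *Pnpla2* lay above *Lpl*, *Lpl* above *Lipe* and *Angptl4* above *Gpihbp1* in 8 of 8 mice. *Mgll* lay above *Angptl4* and *Gpihbp1* above *Lipa* in 7 of 8, and *Lipe* above *Mgll* and *Lipa* above *Pla2g7* in 6 of 8.

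The genotype comparison asked which of these genes differed between atherosclerosis-prone and WT aortas. With edgeR's quasi-likelihood test, 0 of the 10 members had an adjusted p under 0.05, where 70 of all 15077 genes tested (0.464%) did. Limma-voom also called 0 members, and DESeq2, the tool named by the study, called 1 (*Gpihbp1*), against 4.29% of all genes. On counts simulated from these libraries over 15077 genes, 3.27% of edgeR's 153 calls and 20.8% of DESeq2's 216 were false. The changed genes of this 1 simulated set had log2 changes of 1.5 or 3. Its shares of false calls are therefore not error rates for the calls in the real libraries. An unadjusted edgeR p under 0.05 was reached by 1 member, again *Gpihbp1*, and by 11.4% of all genes (4.17% lower). The genotypes did not overlap in 1 of 10 members, against 8.71% of all genes (3.3% lower), so the number of members that differed was close to the background. *ApoE-/-* aortas had log2 fold changes against WT under 0 in 7 of the 10, against 42% of all genes, with a median of −0.43 over the members and 0.05 over all genes.

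**Figure D1:**
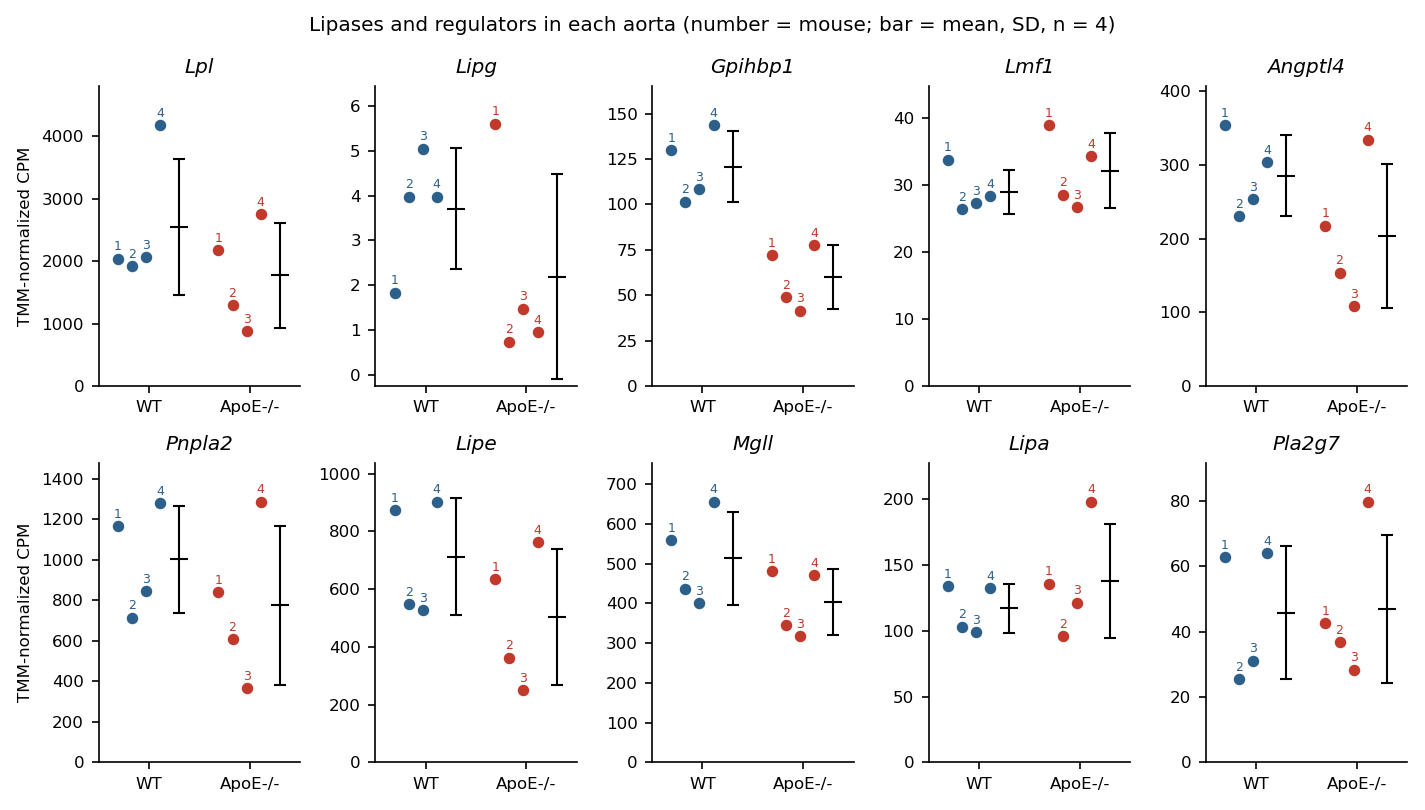
TMM-normalized CPM (vertical axes, each with its own linear scale) of the 10 genes in each aorta, WT in blue and *ApoE-/-* in red, with the mouse number above each point and the mean and SD of 4 mice beside them. The genotypes separate in *Gpihbp1*, where the 4 *ApoE-/-* aortas lie between 41.4 and 77.7 CPM and the 4 WT aortas between 101.6 and 144 CPM, and they overlap in the other 9 genes.

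*Gpihbp1*, the endothelial anchor of LPL, had the smallest edgeR p of the 10 and a log2 fold change of the largest size in that fit. *Lipg* had the larger one in limma-voom (−1.11 against −1.04), with a replicate block (−1.25 against −1.05) and without *ApoE-/-* mouse 1 (−1.79 against −1.11). It was also slightly larger for *Lipg* in DESeq2 without WT mouse 1 (−1.006 against −0.991). The levels of *Gpihbp1* in *ApoE-/-* mice 1 to 4 were 71.9, 48.8, 41.4 and 77.7 CPM, and in WT mice 1 to 4 they were 129.8, 101.6, 108 and 144 CPM. The highest *ApoE-/-* aorta lay below the lowest WT aorta. The means were 60.0 ± 17.6 CPM in *ApoE-/-* and 121 ± 19.4 CPM in WT mice (SD, n = 4 each), and the exact two-sided permutation test gave p = 0.0286, the smallest that 4 mice against 4 allow. On the log2 scale the fold change was −1.01 (SE 0.22, 95% interval −1.53 to −0.50), with an edgeR p of 0.00186 that ranked 297 of 15077 and an adjusted p of 0.0944. Of all genes tested, 0.895% had a lower log2 fold change. DESeq2 gave it an adjusted p of 0.00127, where 1.45% of all genes were called lower, and limma-voom 0.103.

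The *Gpihbp1* result depended on which library was left out. Without *ApoE-/-* mouse 1, edgeR called it (adjusted p = 0.0439, where 1.16% of all genes were called lower), and when any other mouse was left out it was not called, with adjusted p up to 0.268. DESeq2 called it in each of the 8 fits without 1 mouse. Across these 16 fits the log2 fold change stayed between −1.18 and −0.87.

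The 12 markers of endothelium were not chosen to set apart the capillary cells that carry GPIHBP1. EdgeR called 0 of them, while 11 had log2 fold changes under 0 and 6 were lower at an unadjusted p under 0.05 (4.17% of all genes). DESeq2 called 4 of them lower (1.45% of all genes), *Cdh5* (VE-cadherin, log2 fold change in edgeR −0.37), *Kdr* (the main receptor of vascular endothelial growth factor A, −0.79), *Emcn* (endomucin, −0.64) and *Egfl7* (a secreted endothelial protein, −0.72). The median over the 12 was −0.38, and none of them was at 0 in any library. EdgeR called 3 of the 12 lower and DESeq2 4 without *ApoE-/-* mouse 1, where they called 1.16% and 4.01% of all genes lower, with a median of −0.28, and DESeq2 then called *Erg* higher (5.18% of all genes). The sum of the 12 markers ranged from 2363 to 3612 CPM in *ApoE-/-* and from 3488 to 4180.0 CPM in WT mice, and the mean log2 CPM of the list did not overlap between genotypes (7.29 ± 0.17 in *ApoE-/-*, 7.70 ± 0.05 in WT, exact permutation p = 0.0286). The part of endothelial content, or of capillaries within it, in the *Gpihbp1* difference was not tested. The following ratios describe *Gpihbp1* against general endothelial genes. Per 100 CPM of *Cdh5*, *Gpihbp1* stood at 27.3 ± 6.77 CPM in *ApoE-/-* and 42.9 ± 4.24 CPM in WT mice (SD, n = 4), again without overlap (exact permutation p = 0.0286). Per 100 CPM of *Kdr*, the values were 45.9 ± 13.6 and 52.5 ± 4.68 CPM (exact permutation p = 0.4) and overlapped through *ApoE-/-* mouse 4 (65.9 CPM). Per 100 CPM of *Pecam1* they were 11.1 ± 5.54 and 17.4 ± 4.33 CPM (exact permutation p = 0.114) and overlapped through *ApoE-/-* mouse 1 (19.4 CPM). Without that mouse the *Pecam1* ratio was 8.39 ± 0.933 CPM in the other 3 *ApoE-/-* mice, below all WT mice (exact permutation p = 0.0571). Cardiac muscle markers also had lower levels in *ApoE-/-* aortas, with a sum over 10 genes of 161 to 348 CPM, than in WT aortas, with 426 to 752 CPM. EdgeR called 0 of these 10, DESeq2 called 6 lower (1.45% of all genes), and 9 were lower at an unadjusted edgeR p under 0.05 (4.17% of all genes), while *Myl7* and *Sln* were at 0 in an *ApoE-/-* library. With *ApoE-/-* mouse 1 left out, edgeR called 8 of them lower (1.16% of all genes) and DESeq2 9 (4.01%). The part of cardiac tissue in the *Gpihbp1* difference was not tested.

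*Lpl*, the lipase that GPIHBP1 anchors, was measured at 2172, 1295, 882 and 2749 CPM in *ApoE-/-* mice 1 to 4 and at 2041, 1925, 2061 and 4180.1 CPM in WT mice 1 to 4. *ApoE-/-* mice 2 and 3 lay below all WT mice, and *ApoE-/-* mice 1 and 4 lay above 3 of them. The means were 1774 ± 844 and 2552 ± 1087 CPM (SD, n = 4), a log2 fold change of −0.52 (SE 0.42, 95% interval −1.49 to 0.44, edgeR adjusted p = 0.76). This value was −0.18 without WT mouse 4, −0.30 without *ApoE-/-* mouse 3 and −0.82 without *ApoE-/-* mouse 4, and it was not called in any of these fits. The level of *Gpihbp1* per 100 CPM of *Lpl* was 3.65 ± 0.797 CPM in *ApoE-/-* and 5.08 ± 1.21 CPM in WT mice, with overlap (exact permutation p = 0.0857).

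*Angptl4*, the fasting-induced inhibitor of LPL, stood at 217, 154, 108 and 334 CPM in *ApoE-/-* mice 1 to 4 and at 354, 230.7, 253 and 303 CPM in WT mice 1 to 4. *ApoE-/-* mice 1, 2 and 3 lay below all WT mice, and *ApoE-/-* mouse 4 lay above 3 of the 4. The log2 fold change was −0.49 (SE 0.33, 95% interval −1.26 to 0.28, edgeR adjusted p = 0.708). Without *ApoE-/-* mouse 4 it was −0.86 in DESeq2, which then called the gene (adjusted p = 0.0442, where 1.68% of all genes were called lower), and −0.84 in edgeR, which did not (adjusted p = 0.252), and without *ApoE-/-* mouse 3 it was −0.28 in edgeR.

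*Lmf1*, the chaperone for LPL and related lipases, varied least among the members. Its levels were 38.9, 28.5, 26.6 and 34.2 CPM in *ApoE-/-* mice and 33.7, 26.3, 27.3 and 28.2 CPM in WT mice, with overlap. Its log2 fold change was 0.15 (SE 0.15, 95% interval −0.19 to 0.49, edgeR adjusted p = 0.804), and 0.045 without *ApoE-/-* mouse 1, whose level was the highest.

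*Lipg*, the endothelial lipase gene, was near the lower limit of what these libraries measure, with 40 to 91 counts in the WT libraries. Its levels were 5.60, 0.743, 1.48 and 0.955 CPM in *ApoE-/-* mice 1 to 4 and 1.84, 3.98, 5.04 and 3.97 CPM in WT mice 1 to 4. *ApoE-/-* mouse 1 had the highest level of all 8 mice, and the other 3 *ApoE-/-* mice lay below all WT mice. With all 8 mice the log2 fold change was −0.75 (SE 0.66, 95% interval −2.26 to 0.76, edgeR adjusted p = 0.785). Without *ApoE-/-* mouse 1 it was −1.79, not called by edgeR (adjusted p = 0.0526) and called by DESeq2 (adjusted p = 0.000698, where 4.01% of all genes were called lower).

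The 3 lipases of the lipid droplet gave intermediate values. *Pnpla2*, which encodes adipose triglyceride lipase, stood at 841, 609, 366 and 1288 CPM in *ApoE-/-* mice 1 to 4 and at 1168, 714, 844 and 1281 CPM in WT mice 1 to 4 (log2 fold change −0.37, SE 0.38, edgeR adjusted p = 0.811). The highest and the lowest of the 8 aortas were both *ApoE-/-*. *Lipe*, which encodes hormone-sensitive lipase, stood at 635, 363, 251 and 763 CPM in *ApoE-/-* mice and at 873, 548, 526 and 903 CPM in WT mice (log2 fold change −0.50, SE 0.37, edgeR adjusted p = 0.738). *Mgll*, which encodes monoglyceride lipase, stood at 481, 345, 318 and 471 CPM in *ApoE-/-* mice and at 559, 438, 400.5 and 656 CPM in WT mice (log2 fold change −0.35, SE 0.22, edgeR adjusted p = 0.664). In both genes, *ApoE-/-* mice 2 and 3 lay below all WT mice and *ApoE-/-* mice 1 and 4 lay among them. With 1 mouse left out in edgeR, the log2 fold change of *Pnpla2* ranged from −0.73 (without *ApoE-/-* mouse 4) to −0.13 (without *ApoE-/-* mouse 3). That of *Lipe* ranged from −0.78 to −0.28 (without the same mice), and that of *Mgll* from −0.45 (without WT mouse 3) to −0.21 (without WT mouse 4). Per 100 CPM of *Plin1*, the coat protein of adipocyte lipid droplets, *Lipe* stood at 126 ± 9.96 CPM in *ApoE-/-* and 126 ± 11.7 CPM in WT mice (SD, n = 4, exact permutation p = 0.943), where *Plin1* itself had a log2 fold change of −0.56. Relative to 100 CPM of *Adipoq*, the adiponectin gene, *Lipe* stood at 110.5 ± 16.8 and 136 ± 20.8 CPM with overlap (exact permutation p = 0.114).

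**Figure D2:**
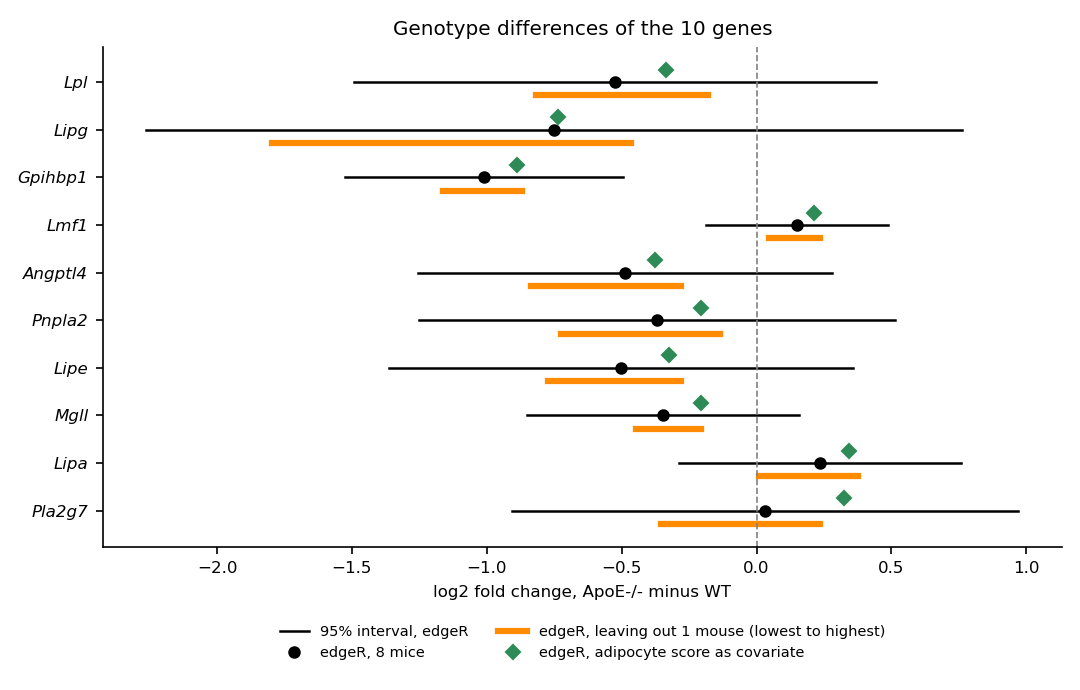
Log2 fold change of *ApoE-/-* against WT (horizontal axis) for the 10 genes, with the edgeR estimate and its 95% interval in black, the lowest and highest edgeR estimates when 1 mouse was left out in orange, and the estimate with the adipocyte score as a covariate in green. The interval lies wholly under 0 for *Gpihbp1* (−1.53 to −0.50) and spans 0 for the other 9.

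*Lipa*, the lysosomal acid lipase gene, and *Pla2g7* are expressed by macrophages, and both overlapped between the genotypes. *Lipa* stood at 136, 95.9, 121 and 198 CPM in *ApoE-/-* mice 1 to 4 and at 134, 103, 98.6 and 132 CPM in WT mice 1 to 4. *ApoE-/-* mouse 4 had the highest level and *ApoE-/-* mouse 2 the lowest. The log2 fold change was 0.24 (SE 0.23, 95% interval −0.29 to 0.76, edgeR adjusted p = 0.802), and without *ApoE-/-* mouse 4 it was 0.008 in edgeR and −0.0085 in DESeq2. *Pla2g7* stood at 42.5, 36.8, 28.4 and 79.7 CPM in *ApoE-/-* mice and at 62.7, 25.5, 31.1 and 64.0 CPM in WT mice, and WT mice 1 and 4 lay well above WT mice 2 and 3. Its log2 fold change was 0.03 (SE 0.41, 95% interval −0.91 to 0.97, edgeR adjusted p = 0.988), and it was under 0 in edgeR without *ApoE-/-* mouse 4 (−0.35), WT mouse 2 (−0.17) or WT mouse 3 (−0.11).

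The macrophage markers themselves were higher in *ApoE-/-* aortas. All 15 had log2 fold changes above 0 (median 1.58), edgeR called 2 of them, *Fcgr1* and *Trem2*, where 0.371% of all genes were called higher, DESeq2 called 10, where 2.84% were, and the sum of the 15 was 689 to 3356 CPM in *ApoE-/-* and 566 to 686 CPM in WT mice. None of the 15 was at 0 in any library. EdgeR called 10 and DESeq2 12 without *ApoE-/-* mouse 1, where they called 2.75% and 5.18% of all genes higher, with a median of 1.76. That mouse was singled out partly by its low macrophage score, so these counts without it are no separate support. *Cd68*, a macrophage lysosomal protein gene, stood at 12.7 to 64.3 CPM in *ApoE-/-* and 5.54 to 9.09 CPM in WT mice, without overlap (log2 fold change 2.21, SE 0.46, edgeR adjusted p = 0.0774), in the same aortas in which *Lipa* and *Pla2g7* overlapped.

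The spread among mice of 1 genotype was larger than most genotype differences and was shared by several members. Among *ApoE-/-* mice the highest level was 3.12 times the lowest for *Lpl*, 3.04 times for *Lipe*, 3.52 times for *Pnpla2* and 3.09 times for *Angptl4*, and among WT mice the same ratios were 2.17, 1.72, 1.79 and 1.53. For *Mgll* the ratio was 1.51 among *ApoE-/-* and 1.64 among WT mice. The log2 levels of *Lipe* and *Pnpla2* had a Pearson correlation of 0.97 over the 8 mice, those of *Lipe* and *Mgll* of 0.94 and those of *Lpl* and *Pnpla2* of 0.92. The *ApoE-/-* mice fell in the order 4, 1, 2, 3 from high to low in 6 of 10 members (*Lpl*, *Lipe*, *Pnpla2*, *Gpihbp1*, *Angptl4* and *Pla2g7*) and in 12 of 15 adipocyte markers. *ApoE-/-* mouse 3 was the lowest of its genotype in 8 of 10 members and 14 of 15 adipocyte markers, and WT mice 1 and 4 were the highest pair of theirs in 8 of 10 members and in 15 of 15 markers.

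No adipocyte marker passed a test of the genotype difference. Of the 15 genes, 12 had log2 fold changes under 0 (median −0.18), edgeR and DESeq2 called 0, and 0 had an unadjusted edgeR p under 0.05. Their sum ranged from 3040.1 to 12974.5 CPM in *ApoE-/-* and from 6405 to 13111 CPM in WT mice, and none was at 0 in any library. The mean log2 CPM of the 15, used here as an adipocyte score, was 7.54, 6.86, 6.16 and 8.10 in *ApoE-/-* mice 1 to 4 and 7.89, 6.91, 7.01 and 8.24 in WT mice 1 to 4 (exact permutation p = 0.514). The lipid droplet genes *Plin1*, *Cidec* and *Cidea*, the fatty acid binding protein gene *Fabp4* and *Pparg* belong both to this list and to the pathway lists below.

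Across the 8 mice, the log2 level of *Pnpla2* had a Pearson correlation of 0.963 with the adipocyte score (Spearman 0.952), *Lipe* of 0.946 (0.952), *Mgll* of 0.904 (0.905), *Lpl* of 0.899 (0.929), *Pla2g7* of 0.903 (0.857) and *Angptl4* of 0.884 (0.833). Without the 2 mice farthest from the median score, *ApoE-/-* mouse 3 and WT mouse 4, these Pearson values were 0.935, 0.874, 0.784, 0.738, 0.941 and 0.792. *Lipa* gave 0.653, *Lmf1* 0.573 and *Lipg* 0.109 over the 8 mice, and 0.936, 0.775 and −0.252 without the same 2. The score and the members come from the same libraries, and these values are descriptions of 8 aortas.

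**Figure D3:**
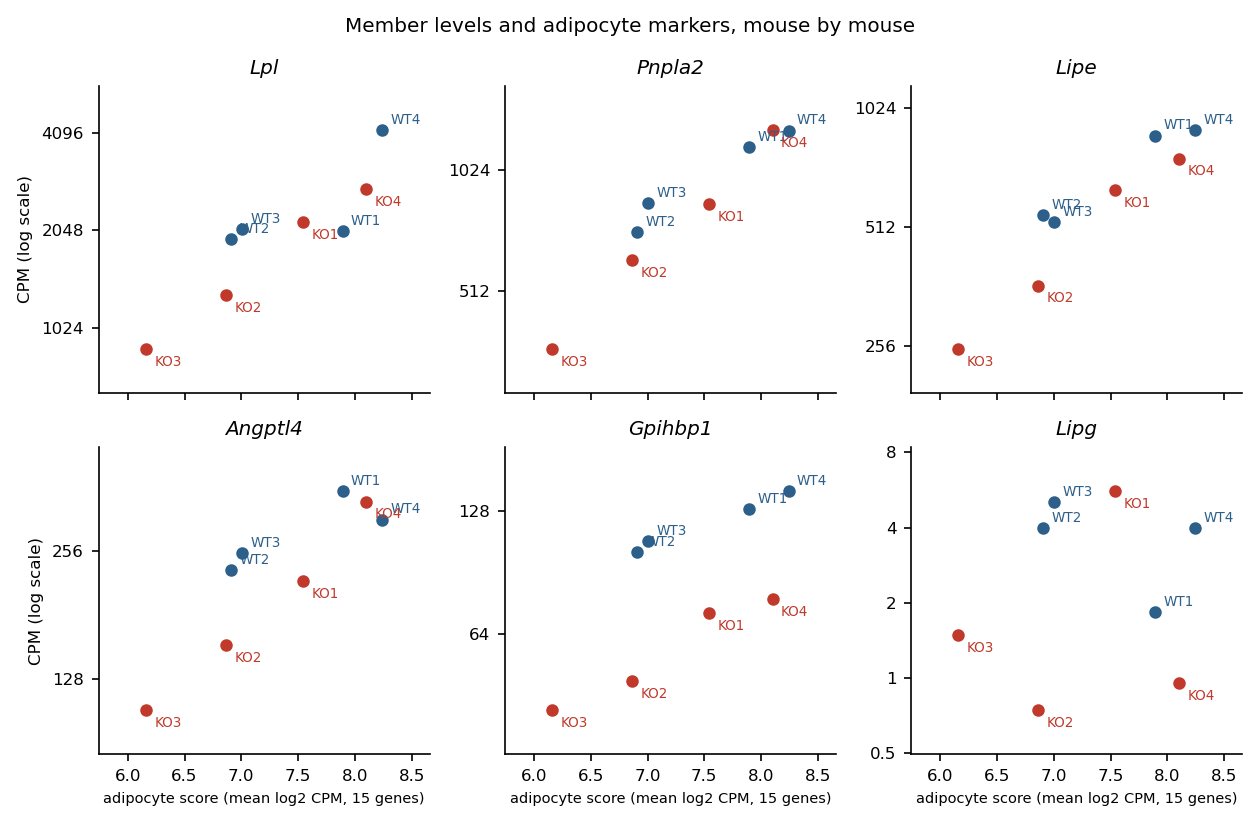
Level of 6 members in CPM (vertical axes, log scale) against the adipocyte score of the same aorta (horizontal axis, mean log2 CPM of 15 marker genes), WT in blue and *ApoE-/-* in red. *Pnpla2* and *Lipe* lie close to a common line through both genotypes, *Gpihbp1* climbs with the score in each genotype with all 4 *ApoE-/-* aortas below all WT aortas, and *Lipg* shows no such slope.

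*Gpihbp1* had a Pearson correlation of 0.688 with the adipocyte score over the 8 mice (Spearman 0.738) and 0.251 without the same 2 mice. Over the 8 mice it was 0.813 with the endothelial score and 0.903 with the cardiac muscle score, both of which differ between the genotypes as *Gpihbp1* does. Within genotypes, its deviations from the genotype means correlated at r = 0.966 with those of the adipocyte score and −0.744 with those of the smooth muscle score. They correlated at 0.588 with those of the cardiac muscle score and 0.19 with those of the endothelial score. The endothelial value pools r = 0.332 among *ApoE-/-* mice and −0.779 among WT mice. WT mouse 2 and *ApoE-/-* mouse 2 had nearly the same score (6.91 and 6.86) and *Gpihbp1* levels of 101.6 and 48.8 CPM, and WT mouse 4 and *ApoE-/-* mouse 4 had scores of 8.24 and 8.10 and levels of 144 and 77.7 CPM. These 2 pairs are examples given for their near scores. In an edgeR fit with the score as a covariate, which was added after the values had been seen, the log2 fold change of *Gpihbp1* was −0.89 (SE 0.09) and it was called (adjusted p = 0.0383, where 49 of 15077 genes, 0.325%, were called and 0.0929% were called lower). Relative to 100 CPM of *Adipoq*, *Gpihbp1* stood at 14.4 ± 4.54 CPM in *ApoE-/-* and 23.6 ± 4.21 CPM in WT mice (SD, n = 4), with overlap (exact permutation p = 0.0571). What part adipocyte content had in the *Gpihbp1* difference was not tested. The other 9 members were not called in the covariate fit, with log2 fold changes of −0.34 for *Lpl* (adjusted p = 0.524), −0.32 for *Lipe* (0.305) and −0.38 for *Angptl4* (0.318). For *Pnpla2*, *Mgll* and *Lipg* they were −0.21, −0.21 and −0.74. Those of *Lipa* (0.34, adjusted p = 0.356), *Pla2g7* (0.32, 0.408) and *Lmf1* (0.21, 0.445) lay farther from 0 than in the main fit.

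Among all genes with a mean of at least 1 CPM, the profiles most like that of *Gpihbp1* over the 8 mice were those of *Stap2* (Pearson 0.985 on log2 CPM), *Cyp4b1* (0.979), *Kank3* (0.979), *Aqp7* (0.978) and *Adgrf5* (0.977), chosen from 14207 genes. For *Lpl* they were *Pde3b* (0.981), *Klhl2* (0.973), *Slc27a1* (0.972), *Abhd15* (0.972) and *Ung* (0.971). *Pde3b* encodes the phosphodiesterase by which insulin restrains lipolysis, and *Slc27a1* a fatty acid transporter. For *Lipe* the closest was *Prkar2b* (0.994), a regulatory subunit of protein kinase A, for *Pnpla2* it was *Tmem186* (0.997), for *Mgll* *Bcl2l13* (0.989) and for *Angptl4* *Tysnd1* (0.995). *Lipa* was closest to *Amdhd2* (0.965), *Lmf1* to *Dcaf4* (0.977), *Pla2g7* to *Tbc1d20* (0.984) and *Lipg* to *Csnk1e* (0.946). These are the top values among many genes over 8 aortas and carry no test.

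Genes that act beside the members were read from 6 lists, of which 99 of 113 genes were tested. In all 6 lists edgeR and limma-voom called 0 genes, and DESeq2 called 6 (6.06%, against 4.29% of all genes). Over all genes, 7.19% were higher and 4.17% lower at an unadjusted edgeR p under 0.05, and the shares called by DESeq2 were 2.84% and 1.45%, against which the counts below are to be read. Without *ApoE-/-* mouse 1, edgeR called 4 genes of these lists, *Soat1*, *Pla2g15* and *Gla* of the list on lysosomal lipid and sterol ester turnover and *Hif1a*, the oxygen-regulated transcription factor gene (log2 fold change 0.73, adjusted p = 0.0147), which in this fit was 1 of 417 genes called higher (2.75% of all).

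Of 14 genes tested for the maturation of LPL and its control in plasma, 11 had log2 fold changes above 0 and 3 under 0 (median 0.07, and 0.13 without *ApoE-/-* mouse 1), with 1 lower at an unadjusted edgeR p under 0.05 and 1 called lower by DESeq2. That gene was *Apoc1*, an apolipoprotein that inhibits lipases, at 9.74, 7.65, 4.70 and 17.0 CPM in *ApoE-/-* mice 1 to 4 and 46.6, 21.2, 24.5 and 81.5 CPM in WT mice 1 to 4. Its genotypes did not overlap (log2 fold change −2.15, SE 0.54, edgeR adjusted p = 0.127, DESeq2 adjusted p = 0.00127). *Apoc1* lies at chr7:19689481-19692660, 0.0034 Mb from the targeted *Apoe*, and the part of the targeted allele was not tested. *Hspg2*, whose product perlecan is a heparan sulfate proteoglycan, was at 983 to 2609 CPM in *ApoE-/-* and 1324 to 1977 CPM in WT mice, and *Lrp1*, a remnant receptor, at 1651 to 3582 and 1806 to 2034 CPM, both with overlap.

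Of 21 lipid droplet and lipolysis genes, 8 had log2 fold changes above 0 and 13 under 0 (median −0.23), with 2 lower at an unadjusted edgeR p under 0.05. DESeq2 called *Aqp7* lower, the channel through which adipocytes and capillary endothelium pass glycerol, at 119, 71.9, 57.2 and 102 CPM in *ApoE-/-* mice 1 to 4 and 197, 129.9, 137 and 198 CPM in WT mice 1 to 4 (log2 fold change −0.92, SE 0.26, edgeR adjusted p = 0.178, DESeq2 adjusted p = 0.0189). *G0s2*, the inhibitor of the *Pnpla2* product, also did not overlap between genotypes, at 19.3 to 72.2 CPM in *ApoE-/-* and 77.7 to 114 CPM in WT mice (log2 fold change −0.91, edgeR adjusted p = 0.38, DESeq2 adjusted p = 0.178). *Abhd5*, its activator, was at 64.9 to 132 and 94.0 to 154 CPM with overlap. *G0s2* and *Abhd5* were named after their values had been seen.

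Of 16 genes for lysosomal lipid and sterol ester turnover, the setting in which *Lipa* works, 14 had log2 fold changes above 0 (median 0.23), with 5 higher at an unadjusted edgeR p under 0.05 and 3 called higher by DESeq2. These were *Soat1*, which re-esterifies cholesterol (0.82, SE 0.18, edgeR adjusted p = 0.0969), *Pla2g15*, a lysosomal phospholipase (0.75, SE 0.19, 0.127), and *Gla*, the alpha-galactosidase A of lysosomes (0.88, SE 0.17, 0.0667). All 3 were higher in every *ApoE-/-* aorta than in any WT aorta, as were 5.41% of all genes. Without *ApoE-/-* mouse 1 edgeR called all 3, with adjusted p of 0.00636, 0.0237 and 0.045, where 2.75% of all genes were called higher.

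Of 15 phospholipase A2 and platelet-activating factor genes, the setting of *Pla2g7*, 12 had log2 fold changes above 0 (median 0.33, and 10 with a median of 0.22 without *ApoE-/-* mouse 1), with 2 higher at an unadjusted edgeR p under 0.05 and 0 called by edgeR or DESeq2. Of 15 genes for uptake of fatty acids and lipoproteins, 9 were above 0 (median 0.23, and 6 with a median of −0.24 without *ApoE-/-* mouse 1), with 1 higher at an unadjusted edgeR p under 0.05 and 0 called by edgeR or DESeq2, and *Fabp4*, *Acsl1*, *Cd36* and *Slc27a1*, the 4 most abundant, had log2 fold changes of −0.48, −0.71, −0.69 and −0.61. Of 18 genes of PPARs and the response to fatty acids, 4 were above 0 and 14 under 0 (median −0.21, and −0.35 without *ApoE-/-* mouse 1), with 1 in each direction at an unadjusted edgeR p under 0.05. DESeq2 called 3 lower and 1 higher of these 18 without that mouse, where it called 4.01% of all genes lower and 5.18% higher. DESeq2 called *Ppargc1a* lower, a coactivator of mitochondrial and brown fat genes, which overlapped between genotypes (log2 fold change −1.12, SE 0.36, edgeR adjusted p = 0.237, DESeq2 adjusted p = 0.0435).

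**Figure D4:**
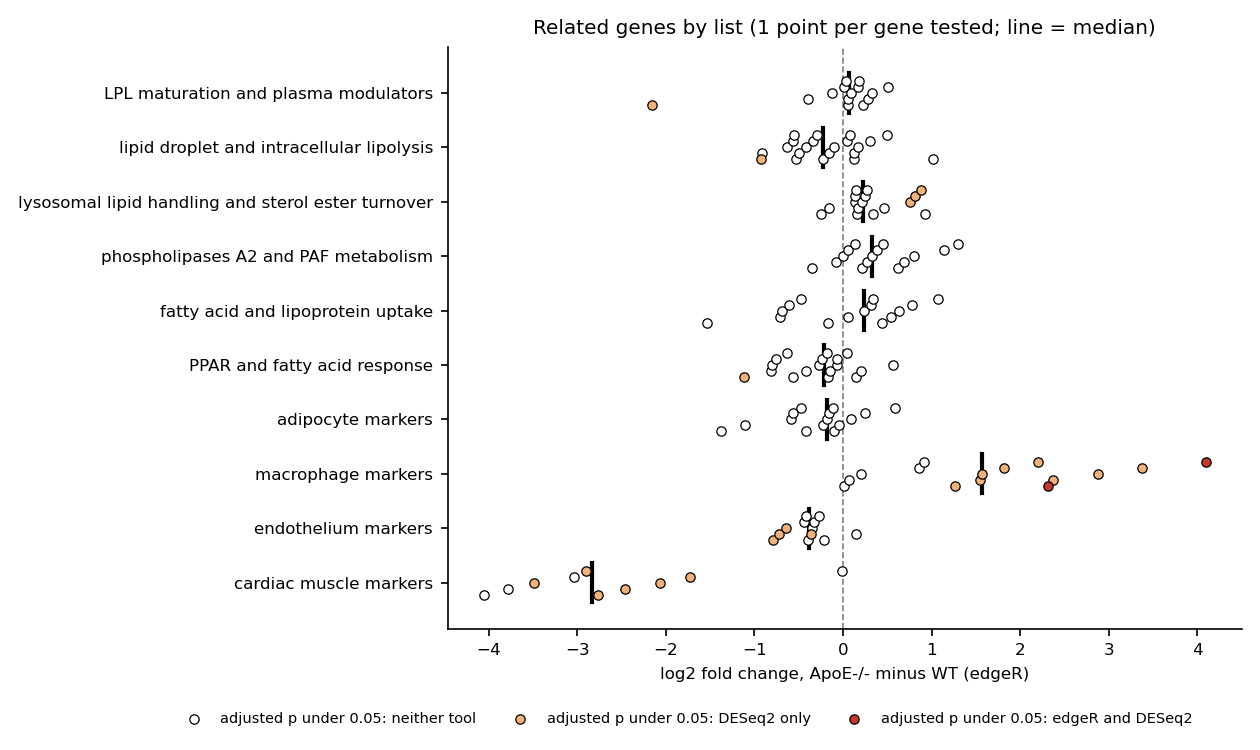
Log2 fold change of *ApoE-/-* against WT in edgeR (horizontal axis) for every gene tested of the 6 pathway lists and of 4 lists of cell markers, 1 point per gene, with the list median as a vertical line. Filled points passed an adjusted p of 0.05 in DESeq2 alone (orange) or in edgeR as well (red), and the red points are the macrophage markers *Fcgr1* and *Trem2*.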

How the data were processed

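Whole aortas of 4 *ApoE-/-* and 4 WT mice were sequenced by the authors after ribodepletion with a strand-keeping kit, 1 library for each separate mouse, and the deposited values are raw counts per gene, neither normalized nor pooled. TopHat2, HTSeq, GRCm38 and mm10 are named in the submitters' processing notes, without versions. The 5 summary rows of each table (pairs on no gene, ambiguous or not unique) were left out, and 27.9% to 35.6% of the pairs listed were counted on genes, with no overlap between genotypes. Genotype and mouse number came from the labels.

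Genes were filtered with filterByExpr and compared with the robust quasi-likelihood F test of edgeR 4.0.16 (R 4.3.3, TMM factors, two-sided, Benjamini-Hochberg adjustment over all 15077 genes, threshold 0.05), with genotype as the only factor. Standard errors were derived from the log2 fold change and F (its size over the root of F). Exact permutation tests of levels used the 70 assignments of 4 mice against 4. Those without *ApoE-/-* mouse 1 used the smaller number that 3 mice against 4 allow, so their p-values lie on a coarser scale. DESeq2 1.42.0, limma-voom (limma 3.58.1), other scaling and filters, a replicate block and leaving out each mouse were the alternatives. A fit with the adipocyte score as a covariate, and ratios, scores and list counts without *ApoE-/-* mouse 1, were added after the data had been seen. On simulated counts, edgeR recovered 57% of the genes given a log2 change of 1.5 and 91% of those given 3, and DESeq2 75% and 96%. Log2 CPM used a prior count of 2. Coordinates and exon lengths came from GENCODE M21, in which 21191 of the 21859 gene identifiers, and all 10 members, were found with the same version.

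The members, the 6 pathway lists and the 7 marker lists were chosen with earlier results of these data known. Named were the members, the marker genes, *Apoe*, the pathway genes past the threshold in edgeR or DESeq2 or else up to 4 of the most abundant of a list, and the genes most correlated with each member. *G0s2*, *Abhd5*, *Hspg2*, *Lrp1* and *Hif1a* were named outside this rule, after their values had been seen.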

Additional observations from a re-analysis of the deposited data

Results flagged for a closer look

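Among 34 groups of 4 mice examined for a single distant value, 3 were found, where chance gives about 1 in 20, or 1.7. In WT mice the *Lpl* level of mouse 4 (4180.1 CPM) lay 0.939 of the group's whole range from its nearest neighbour (2061 CPM). In *ApoE-/-* mice the *Lipg* level of mouse 1 (5.60 CPM) lay 0.848 of the range from the next (1.48 CPM), and the cardiac muscle score of the same mouse (3.63) lay 0.836 of the range from the next (1.47).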

How the results depend on the processing

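Of the 10 members, 0 were called in the main analysis, 1 with DESeq2, 1 with the adipocyte score as a covariate, and 0 to 2 when 1 mouse was left out in either tool. Over all genes, 70 were called in the main analysis, 721 with DESeq2, 29 with limma-voom, and 0 to 1548 when 1 mouse was left out (edgeR 0 to 593, with 593 without *ApoE-/-* mouse 1, and DESeq2 439 to 1548). Of the pathway genes, 0 were called in the main analysis, 6 with DESeq2, 1 (*Apoc1*) with the covariate, and 0 to 12 when 1 mouse was left out. The members without overlap of genotypes were 1, and 1 to 2 without 1 mouse, where 10.3% to 17.3% of all genes did not overlap (17.3% without *ApoE-/-* mouse 1 and 13.5% without *ApoE-/-* mouse 4, the 2 sets with 2 members). The log2 fold change of *Lipa* lay between −0.0085 and 0.37 when 1 mouse was left out, and that of *Pla2g7* between −0.37 and 0.24, so both changed sign in some of these fits. The other 8 kept their sign in all 24 alternatives. The other scaling, filters and estimation changed no call of a member. The cause of these differences was not tested, beyond the smaller number of mice in the fits that leave one out. The replicate numbers belong to different mice and do not pair them (correlation of deviations −0.448 to 0.316 for mice of the same number, and 1 of 4 *ApoE-/-* mice closest to its own number). With the replicate block in edgeR, 2 genes were called, 0 of them members, and *Gpihbp1* had an adjusted p of 0.112. With 4 mice against 4, a gene as variable among mice as *Lpl* has a 95% interval of −1.49 to 0.44 on the log2 scale, and *Lipg* is also limited by its low counts.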

Other observations

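Lists of other tissues gave the following values. Of 10 smooth muscle markers, 8 had log2 fold changes under 0 (median −0.11), and edgeR and DESeq2 called 0, with 0 at an unadjusted edgeR p under 0.05. Without *ApoE-/-* mouse 1, which was singled out partly by its low smooth muscle score, the median was 0.17, with 9 above 0. Of 9 skeletal muscle markers tested, 5 were above 0 (median 0.08), edgeR called 0, DESeq2 called *Ckm* lower (log2 fold change −1.54, edgeR adjusted p = 0.154), and 1 in each direction had an unadjusted edgeR p under 0.05. All 8 fibroblast markers were above 0 (median 0.48), edgeR called 0, DESeq2 called 1 higher, *Lum*, the gene of the collagen-binding proteoglycan lumican (log2 fold change 2.34, edgeR adjusted p = 0.0527), and 2 had an unadjusted edgeR p under 0.05. The fibroblast score was 8.84 ± 0.565 in *ApoE-/-* and 8.15 ± 0.045 in WT mice (SD, n = 4, exact permutation p = 0.143), with overlap through *ApoE-/-* mouse 1 (8.02). Without that mouse it was 9.11 ± 0.19 in *ApoE-/-* mice, above all WT mice (exact permutation p = 0.0286), and edgeR called 4 of the 8 markers higher, where it called 2.75% of all genes higher.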
